A study of Mus musculus with 6 samples.

Results

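CTCF regions called in both BRD2-null clones of an erythroblast line, and not in its wild type, are described here. The members were chosen by the peak calls themselves: overlapping peaks of the 3 deposited CTCF peak lists were joined into regions when they shared at least 1 bp, and a member held a clone D peak and a clone C8 peak but no wild-type peak. By this rule 2167 of 48367 regions were members. The same calls therefore decide membership and every strength value below, so strength is given as a description and not as evidence for a difference.

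The cells were G1E-ER4, a mouse erythroblast line without GATA1 of its own that carries GATA1 fused to the hormone-binding part of the estrogen receptor. All 3 CTCF libraries came from cells given 100 nM estradiol for 24 hours, which activates the fusion protein and starts maturation. The groups were wild-type G1E-ER4 (1 library) and BRD2-null cells (2 libraries), the latter from the CRISPR/Cas9 sub-lines D_Brd2KO and C8_Brd2KO, each a single clone without detectable BRD2 per the series' design text. One antibody lot was used throughout. The lists record binding and not expression, so neither the erythroid identity nor the loss of BRD2 was checked with them, and their read depth is unknown. A single wild-type library leaves the genotypes without a test, and the difference between the clones is the measure of spread. Whether the clone libraries came from separate experiments is not stated.

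CTCF is a zinc finger protein that recognises a long DNA motif and stops cohesin from sliding along chromatin, which places it at the borders of chromatin domains and at the feet of loops. Its sites differ widely in strength, and weak sites lie close to the detection limit of a ChIP-seq library. BRD2 is a BET protein that reads acetylated histones, and the title of the series places it together with CTCF at transcriptional boundaries.

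Every member held exactly 1 peak of clone D and 1 peak of clone C8, so no member joined several sites of a clone. Of the 26100 regions called in both clones, the 2167 members made up 8.30% (exact 95% binomial interval 7.97 to 8.64, counting error only). The same construction with another library left out gives the background. Clone D lacked 2196 of the 26129 regions held by wild type and clone C8 (8.40%, 8.07 to 8.75), and clone C8 lacked 1304 of the 25237 regions held by wild type and clone D (5.17%, 4.9 to 5.45). In the lists as deposited, the share missing from wild type thus lay between those missing from each of the BRD2-null clones. Both clones were needed to define the set: without clone D, 6006 regions of clone C8 (18.7%) lacked a wild-type peak, and with clone C8 removed the number was 4441 for clone D (15.0%).

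The place of wild type in this order depended on how the lists were trimmed. With all 3 lists cut to the length of the shortest by enrichment, the share missing from wild type was 11.1% (2804 regions), against 5.77% for clone D and 5.86% for clone C8. In the upper 75% of each list the order turned: 4.49% were missing from wild type (897 regions), 12.0% from clone D and 6.74% from clone C8. With peaks kept only at false discovery rates up to 0.05, which left 21210 wild-type peaks against 28220 and 27576 in clones D and C8, the shares were 20.3% (4905 regions), 2.94% and 2.82%. Trimming also changed which regions qualified. At a −log10 p of at least 10, 1757 regions qualified, of which 367 were among the 2167 members of the deposited lists (16.9%) and 1390 were others. In the upper 75% of each list 552 members kept their place (25.5%) and 345 others entered. At equal length by enrichment, 1893 of the 2167 members kept their place and 911 others entered, and at the false discovery rate threshold 1386 kept their place and 3519 entered.

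**Figure D1:**
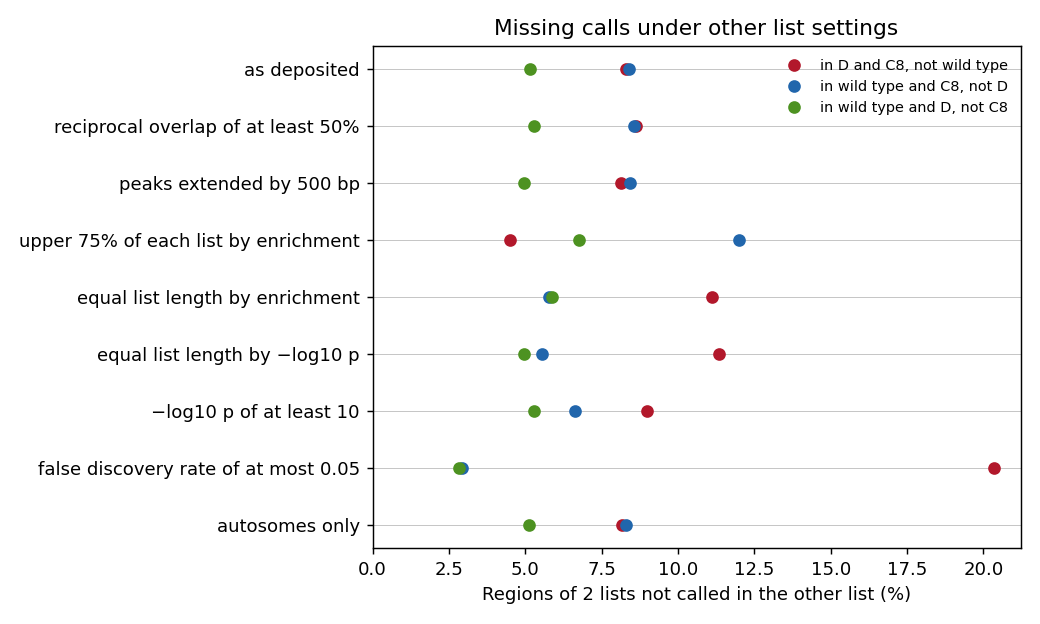
Share of regions held by 2 lists (x axis, %) that were not called in the remaining list, for the deposited lists and 8 other settings (y axis), with 1 point per library left out. The point for wild type (red) lies between the clones at 8.30% in the deposited lists, below both at 4.49% in the upper 75% of each list, and farthest above both at 20.3% for false discovery rates up to 0.05.

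Members were mostly weak sites in both clones. Column 7 of the lists was read as the authors' fold enrichment, a ratio whose denominator the sources used here do not give. This reading, and that of the next columns as −log10 p and false discovery rate, comes from the layout of the lists and their values. It had a median of 10.55 for the members in clone D (10th to 90th percentile 7.41 to 16.47), against 17.35 for all clone D peaks. In clone C8 the members' median was 12.92 (9.52 to 20.67), against 21.53 for all clone C8 peaks. Placed within each list from 0 (weakest) to 100 (strongest), the median member stood at percentile 21.8 in clone D and 23.2 in clone C8. Regions called in all 3 lists stood at 59.4 and 62.3. Over the clone lists together the members' median was 22.5, and it depended on the trimming: regions that qualified in the upper 75% of each list stood at 40.5, and those with −log10 p values from 10 upwards at 45.1. Members above the median of their list numbered 154 for clone D (7.11%) and 178 for clone C8 (8.21%), and 43 were above it in both. None of the 2167 members reached the strongest 10% of either list, which allows a share of up to 0.170%.

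**Figure D2:**
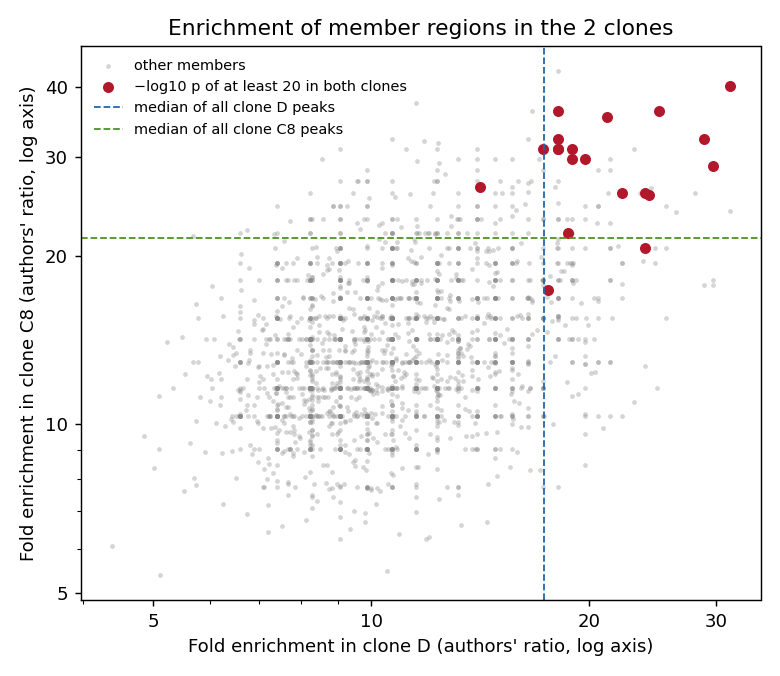
Fold enrichment of each of the 2167 members in clone D (x axis) and clone C8 (y axis), both the authors' ratio on log axes, with dashed lines at the median of all peaks of each clone list. Most points lie below both lines, and the 20 members whose −log10 p reached 20 in both clones (red) lie at 14.13 to 31.28 in clone D and 17.37 to 40.05 in clone C8.

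The authors' −log10 p was also low in members. Its median over members was 8.35 for the clone D peaks and 8.21 for the clone C8 peaks, with 5 as the lowest value in each list. Both peaks were below 10 in 1101 members (50.8%), both were at least 10 in 367 (16.9%), and the clones fell on different sides of 10 in 699 (32.3%). Among regions missing from a clone, where a wild-type peak takes the place of a clone peak and 44.2% of all wild-type peaks were below 10 (26.2% and 30.6% in clones D and C8), both peaks were at least 10 in 267 of 2196 regions absent from clone D only (12.2%) and in 137 of 1304 absent from clone C8 only (10.5%). The false discovery rate was at most 0.05 for 1910 members in clone D (88.1%), against 94.8% of all clone D peaks. In clone C8 it was so for 1546 members (71.3%), against 85.4% of all clone C8 peaks. Members thus met this limit less often than the lists as a whole, and 1386 met it in both (64.0%).

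How often wild type lacked a region depended steeply on the strength of that region in the clones. Regions of both clones were divided into 10 equal classes by their mean percentile in those lists. In class 1, the weakest, 939 of 2610 regions were members (36.0%, 34.1 to 37.9), in class 2 it was 610 (23.4%), and in class 3 it was 339 (13.0%). Class 5 held 67 members (2.57%), class 6 held 33 (1.26%) and class 7 held 6. Class 8 held 2 members, class 9 held 1, and class 10 held none of 2610 (upper end of the interval 0.141%, counting error only). Classes 1 to 3 together therefore contained most members. Clone D lacked 41.0% of the weakest class of regions held by the other lists and 0.383% of class 6, and clone C8 lacked 28.3% and 0.0396%. In class 10 clone C8 lacked 1 of 2524 regions. Classes were formed separately for each pair of lists, so the same class number is not the same strength. Class 1 ended at mean percentile 20.9 for regions of both clones. It ended at 29.0 where clone D was left out and at 28.7 where clone C8 was left out.

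**Figure D3:**
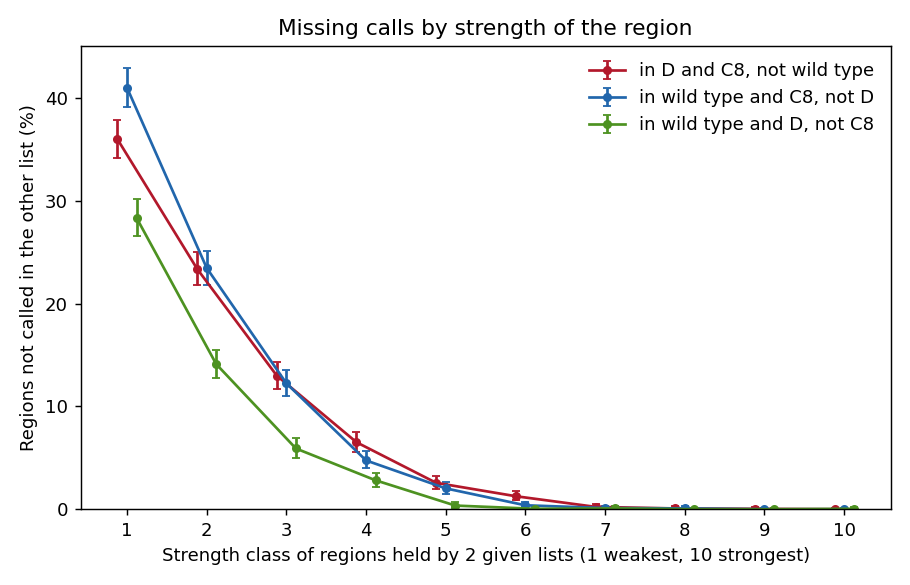
Share of regions held by 2 given lists that the remaining list lacked (y axis, %), by strength class of the region from 1 (weakest) to 10 (strongest) on the x axis, with exact 95% binomial intervals. All 3 curves drop towards the strong classes, and for wild type (red) the share goes from 36.0% in class 1 to 1.26% in class 6. Classes were formed separately for each pair of lists, so a class number is not the same strength in each curve.

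The clones placed their peaks at nearly the same point in the members. The centres of the clone D and clone C8 peaks were a median of 35 bp apart (quartiles 15.5 to 60.5 bp), and in 2037 members (94.0%) they were at most 100 bp apart. In regions called in all 3 lists the offset between the clones was 37.5 bp, so members and shared sites were alike in this measure. The overlap was a median of 331 bp, and in 6 members it covered less than 50% of the narrower peak. Enrichment was less closely related between the clones among members (Spearman rho 0.31 across 2167 regions) than among regions of all 3 lists (0.75 across 23733 regions). Between the libraries that hold them, rho was 0.24 for regions absent from clone D only and 0.18 for regions absent from clone C8 only, both below the members. These are descriptions across regions of the same libraries, and members span a narrower range of strength.

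Member regions were narrow. Their median width was 451 bp (quartiles 398 to 503 bp, range 236 to 975 bp), against 584 bp in regions of all 3 lists, which join peaks of 3 libraries in place of 2. Where only clone D lacked the region the median was 421 bp, and where only clone C8 lacked it 455 bp. Single peaks can be compared more directly. Within strength class 1, clone D peaks were 398 bp wide in members and 424 bp in regions of all 3 lists, and clone C8 peaks 343 and 374 bp. In class 4 the widths were 452.5 and 482 bp in clone D and 399 and 417 bp in clone C8. The −log10 p was also lower in members of a class although the enrichment was close: in class 3 the medians were 10.9 and 12.7 in clone D, and 10.6 and 12.9 in clone C8, at enrichments of 13.11 and 12.87 in clone D and 16.80 and 16.86 in clone C8. The shared regions of class 3 had a median wild-type enrichment of 23.79 and a −log10 p of 12.8.

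By the median, members lay farther from shared CTCF sites than regions absent from a single clone did, and than shared sites lay from each other. A long distance was not particular to members. All clone C8 regions without a wild-type peak, members included, had a median of 25105.5 bp, and all such clone D regions 21855.5 bp. The median distance from a member to the nearest region called in all 3 lists was 21.2 kb (quartiles 7.07 to 59.7 kb). It was 14.9 kb for regions absent from clone D only, 15.8 kb for regions absent from clone C8 only, and 13.2 kb between neighbouring regions of all 3 lists. Of the members, 113 (5.21%) lay within 1 kb of a shared region, 703 (32.4%) within 10 kb, and 343 (15.8%) beyond 100 kb. Beyond 100 kb lay 14.2% of the regions absent from clone D only, 11.4% of those absent from clone C8 only and 7.68% of shared regions.

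Members were also farther from shared regions within strength classes. In class 1 the median distance was 20.9 kb for the 939 members and 13.5 kb for the 1671 shared regions. In class 2 it was 22.8 and 15.0 kb, in class 3 it was 18.7 and 14.7 kb, and in class 4 it was 19.5 and 13.8 kb. Read in the other direction, wild type lacked 5.96% of the 7102 both-clone regions with another shared region within 5 kb and 15.7% of the regions with none within 100 kb. Regions of equal strength, taken in 50 bins, would give 7.46% and 10.9%, so the differences were −1.50 and 4.86 percentage points. For regions missing from clone D the same differences were −0.370 and 3.15 points, and for clone C8 they were −0.162 and 0.463 points. The difference among isolated regions was thus largest for wild type, next for clone D, and the libraries are too few to test it.

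**Figure D4:**
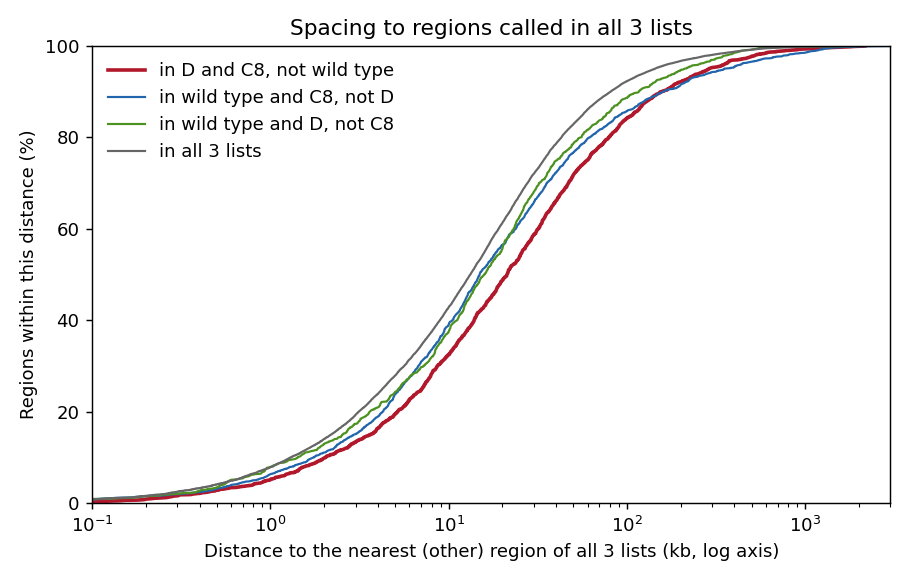
Cumulative share of regions (y axis, %) by distance to the nearest other region called in all 3 lists (x axis, kb, log axis), for members (red), the classes absent from a single clone and regions of all 3 lists. The member curve lies to the right of the others over most of the range, with a median of 21.2 kb against 13.2 to 15.8 kb.

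The members farthest from shared regions are named here, and the CTCF calls around them were not counted. A pair on chromosome 16 (81330672 to 81331147 and 81284447 to 81284976) lay 2162 and 2116 kb from the nearest shared region, with clone D enrichments of 9.88 for each and clone C8 enrichments of 9.04 and 12.92. The next was a region on chromosome 8 (103374825 to 103375425), 1929 kb away, with an enrichment of 13.17 in clone D and 29.71 in clone C8. Members near to and far from shared regions were close in strength: those within 1 kb of a shared region had medians of 9.94 (D) and 13.38 (C8), and the 328 members at 100 kb to 1 Mb had 10.70 and 13.08.

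Few members had a called wild-type peak within 1 kb. Wild-type signal too weak to be called is not in the lists, so these distances do not address it. The nearest wild-type peak lay a median of 14.0 kb away (quartiles 5.08 to 34.6 kb). It was within 100 bp for 7 members, within 500 bp for 65 (3.00%) and within 1 kb for 135 (6.23%). Of the members, 19 had a peak of the wild-type-only class within 1 kb. Just inside the rule were a region on chromosome 3 (95666179 to 95666587) with a wild-type peak 13 bp away, a region on chromosome 14 (69764492 to 69764885) at 19 bp, and a region on chromosome 8 (98318229 to 98318817) at 40 bp. The neighbouring wild-type peaks had enrichments of 61.46, 33.70 and 11.81. The first pair of these belonged to shared regions. Just outside the rule, the smallest overlaps of a wild-type peak with a both-clone region were 15 bp on chromosome 11 (101847020 to 101847769), 60 bp on chromosome X (7831842 to 7832680) and 94 bp on chromosome 4 (135708749 to 135709385), by wild-type peaks with enrichments of 13.80, 15.86 and 15.86. Such cases were few: in 3 of 23933 shared regions the largest overlap was under 100 bp.

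Shared sites beside members were also compared by percentile. These values are not independent of the rule: the same lists chose the members, and a shared site needs a wild-type call. For each region of all 3 lists, its percentile in wild type was subtracted from its mean percentile in the clones. Over all 23933 such regions the median of this difference was −7.45 points. The wild-type list is the longest and has the most weak peaks, so percentiles there are not on the same footing as in the clones. The 233 shared regions within 2 kb of a member had a median of −3.44 (−4.84 in clone D and −2.27 in clone C8). The 256 within 2 kb of a region absent from clone D only had −8.81, and the 182 beside regions absent from clone C8 only had −9.29. Relative to shared regions of equal mean strength the differences were 1.75, −2.10 and −2.43 points. Shared regions within 2 kb of a member stood slightly higher in the clones than regions of equal strength did. At 2 to 10 kb from a member the difference was −0.0700 points. The same 3 libraries give both values, and the difference has no replicate of wild type to be tested against.

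Members were found on all 19 autosomes and on chromosome X. Chromosome Y held 22 wild-type peaks, 1 clone D peak and 2 clone C8 peaks. It had no region of both clones, so it could hold no member. Counts per autosome ran from 53 on chromosome 18 to 165 on chromosome 5. As a share of both-clone regions, the lowest autosome was chromosome 12, with 56 of 1025 (5.46%, 4.15 to 7.04), and the highest was chromosome 8, with 157 of 1333 (11.8%, 10.1 to 13.6). Chromosome X was higher still, with 91 of 708 (12.9%, 10.5 to 15.5). Autosomal regions of equal strength would give 9.20%, 8.27% and 7.56% on chromosomes 12, 8 and X, so the differences were −3.74, 3.51 and 5.29 points. On 17 of 19 autosomes the difference was at most 2.5 points in size, a limit that was not planned. For regions absent from clone D only, and for those absent from clone C8 only, it was within this limit on all 19. The 3 chromosomes were singled out after their values were seen.

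Chromosome X was also high when a clone was the list that lacked the region. Clone D lacked 11.6% of the 698 regions of chromosome X held by the others, 3.12 points above the share expected from strength, and clone C8 lacked 6.80% of 662, 1.73 points above. The high value was therefore largest for wild type but not limited to it. Chromosome X held 4.00% of all wild-type peaks, against 2.78% and 2.92% of the peaks of clones D and C8. Its shared regions had a median percentile of 61.2 in wild type, against 70.0 over all chromosomes. In clones D and C8 they stood at 57.1 and 59.7, against 59.4 and 62.3. The median enrichment of all wild-type peaks on chromosome X was 15.86, against 22.68 for the whole list. For members, the share expected from strength uses clone percentiles only, and a link with these wild-type values was not tested.

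On chromosome 8 the libraries differed in direction. Clone D lacked 8.41% of 1284 regions (0.412 points above expectation) and clone C8 lacked 3.61% of 1220 (−1.20 points), its lowest autosome. Chromosome 8 held 4.61% of wild-type peaks, and 4.95% and 5.21% of the peaks of clones D and C8. Shared regions of chromosome 8 had a median percentile of 65.6 in clone C8, against 62.3 over all chromosomes, while in clone D it was 60.01 against 59.4 and in wild type 70.0 on chromosome 8 and over all chromosomes. Taken alone, clone C8 regions on chromosome 8 lacked a wild-type peak in 23.4% of cases, against 18.7% over all chromosomes, and clone D regions in 16.9%, against 15.0%. These percentiles were not particular to chromosome 8: in clone C8 shared regions stood at 65.6 on chromosome 3 and 66.6 on chromosome 13, and the median enrichment of all clone C8 peaks on chromosome 8 was 20.84, below the 21.53 of the whole list.

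On chromosome 12 the low share was clearest where both clones were required. There 16.0% of clone C8 regions and 14.2% of clone D regions lacked a wild-type peak. Of the chromosome 12 regions held by the other lists, clone D lacked 9.27% and clone C8 lacked 8.15%, the latter its highest autosome. The differences from the shares expected from strength were −0.289 points for clone D and 0.943 points for clone C8. With lists of equal length by enrichment, the share of both-clone regions of chromosome 12 without a wild-type peak was 9.43%, against 11.1% over all chromosomes. On chromosomes 8 and X it was then 14.3% and 15.5%.

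**Figure D5:**
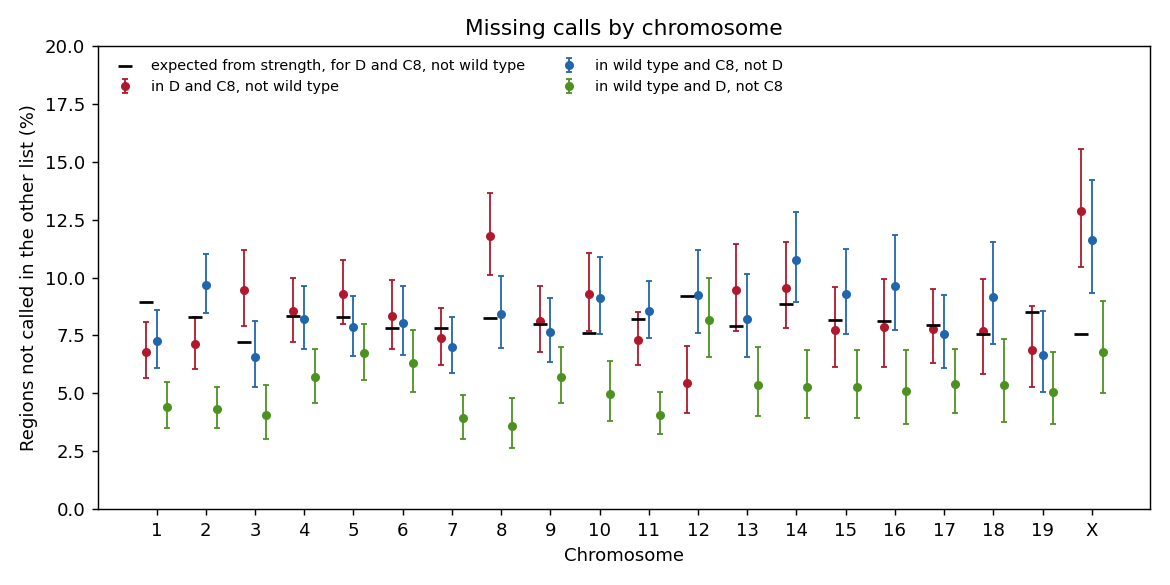
Share of regions held by 2 given lists that the remaining list lacked (y axis, %), by chromosome (x axis), with exact 95% binomial intervals and, for members, the share expected from strength (black bars). Members (red) stand above the black bar on chromosomes 8 (11.8%) and X (12.9%) and below it on chromosome 12 (5.46%).

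Members were scattered singly along the chromosomes. The median gap between a member and the next member was 241 kb, and 93 members (4.29%) had another within 10 kb, against 5.74% of regions absent from clone D only, a class of nearly equal size. Of 1927 runs of neighbouring members with no shared region between them, 1717 held a single member, 188 held 2, 15 held 3 and 7 held 4 or more. Regions absent from clone D only were spread in nearly the same way, in 1923 runs of which 1714 held 1, 181 held 2, 15 held 3 and 13 held 4 or more, with up to 12 in a run, so such runs were not peculiar to members. The longest run of members held 5 over 1798 kb of chromosome 12 (114974041 to 116771833), a stretch where wild type had 13 peaks, clone D also 13 and clone C8 had 11, none of them shared by all 3. Member enrichments there were 7.41 to 17.29 in clone D and 9.04 to 12.92 in clone C8.

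Runs were ordered by their number of members and then from the shortest span, which leaves less room for a wild-type peak. Wild-type peaks were counted only in the runs named here. Among the other runs of 4 or more, the pair that came next in this order held no wild-type peak. One spanned 107 kb of chromosome X (7610101 to 7716870), where both clones had 4 peaks and wild type had 0. Enrichments there were 7.41 to 14.82 for clone D peaks and 11.79 to 21.96 for clone C8 peaks. The other spanned 149 kb of chromosome 6 (88885643 to 89034876), again with 4 peaks in each clone and 0 in wild type, with enrichments of 6.90 to 18.76 in clone D and 7.44 to 16.80 in clone C8. The strongest clone D peak of this run had a −log10 p of 23.4.

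In windows of 2 Mb the members numbered at most 12. That window was on chromosome 14 from 54000001 to 56000000, where 12 of 80 both-clone regions lacked a wild-type peak (5.45 expected from strength), while 3 regions lacked only a clone D peak and 0 only a clone C8 peak. A window on chromosome 8 from 108000001 to 110000000 held 11 members beside 69 shared regions (7.62 expected). A window on chromosome 5 from 148000001 to 150000000 held 10 beside 50 (4.98 expected). These windows were picked for their counts from 1306 windows with a region, of which 889 held a member. The largest counts of the other classes in a window were 13 for regions lacking only clone D and 9 for those lacking only clone C8.

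Members whose −log10 p reached 20 in both clones numbered 20, on 14 chromosomes, and are the ones least close to the detection limit. By the same measure, 5 regions lacked only clone D and 4 lacked only clone C8. These counts are not like for like, since the latter classes need a wild-type peak to reach 20, and the median −log10 p was 11.8 over all wild-type peaks, against 20.2 and 17.5 in clones D and C8. The 20 regions stood at percentiles 38.7 to 81.8 in clone D and 39.1 to 82.1 in clone C8. The nearest wild-type peak was 0.179 to 197 kb away, with a median of 7.66 kb, and lay within 5 kb for 6 of them. That nearest peak belonged to a shared region for 10, was called in wild type only for 8, and was called in wild type and clone C8 for 2. Ranks below count from the strongest peak of a list, and tied peaks share the best rank.

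The strongest of them, on chromosome 19 (32586932 to 32587469), had an enrichment of 31.28 in clone D and 40.05 in clone C8, with −log10 p of 37.2 and 31.8. It ranked 5366 among the 29769 peaks of clone D and 5698 among the 32308 of clone C8. A shared region ended 179 bp away, and it was weak in all 3 lists: 15.86 in wild type, 9.88 and 10.34 in the clones. Wild type therefore had a call beside this site and none on it. A region on chromosome 17 (71579599 to 71580225) was arranged in a similar way at a larger distance: its enrichments were 23.88 and 25.84 in clones D and C8, and the nearest wild-type peak, 2.84 kb away, had 25.77, in a shared region with 6.42 and 14.21 in the clones. On chromosome 14 (112072147 to 112072588), with enrichments of 23.88 and 20.67, the shared neighbour lay 1.12 kb away and had the higher enrichment within each clone list, at 49.95 in wild type, 26.28 in clone D and 27.92 in clone C8.

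Other strong members lay far from any shared region. The region on chromosome 7 (30646600 to 30647132) had enrichments of 28.81 in clone D and 32.30 in clone C8. The nearest wild-type peak, 4.76 kb away, had 13.88 and a false discovery rate of 0.485, and the nearest shared region was 92.4 kb away. The region on chromosome 4 (39961576 to 39962111) had enrichments of 25 and 36.17, with a wild-type-only peak of 12.50 at 41.4 kb and the nearest shared region at 120 kb. On chromosome 11 (28510578 to 28511260), the most isolated of the 20, enrichments were 17.29 and 31.01, no wild-type peak lay within 197 kb, and no shared region within 592 kb. A region on chromosome 1 (119416089 to 119416527) had 18.11 and 36.17, and its nearest shared region was 493 kb away.

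For further strong members the nearest wild-type call belonged to a shared site with higher enrichments than the member in at least one clone. The region on chromosome 5 (4911775 to 4912320), with 29.64 in clone D and 28.86 in clone C8, lay 6.11 kb from a wild-type peak of 63.44, whose region had 40.34 and 36.78 in the clones. On chromosome 8 (109644627 to 109645133) the enrichments were 17.58 and 17.37, and a wild-type peak of 43.09 lay 4.35 kb away, in a region with 20.23 and 20.52 in the clones. A region on chromosome 7 (28099416 to 28099827) had 18.72 and 21.96, and the wild-type peak 7.87 kb away had 51.54, in a region where the clones differed (17.44 in clone D and 54.26 in clone C8). The region on chromosome 18 (20725251 to 20725815), with 22.23 and 25.84, had its nearest wild-type peak at 72.5 kb, with 51.48, in a region with 56.81 and 53.40 in the clones.

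The remaining strong members are given in the same way, and their values are not on a common scale between the lists. On chromosome 9 (57068234 to 57068569), the narrowest of them at 336 bp, enrichments were 21.21 and 35.30 in clones D and C8. Chromosome 16 held a region (23087800 to 23088206) with 24.24 and 25.67 and another (4689259 to 4689694) with 18.94 and 31.01. The latter had a wild-type peak 20.6 kb away that was shared with clone C8 and not with clone D. On chromosome 13 (62346524 to 62347045) the values were 18.94 and 29.71, and a wild-type-only peak of 10.56 lay 2.07 kb away. On chromosome 1 (145522808 to 145523295) they were 19.76 and 29.71. A pair of regions on chromosome 4, at 24464119 to 24464615 and 74709027 to 74709637, had 18.11 each in clone D, and 32.30 and 31.01 in clone C8. On chromosome 6 (14472716 to 14473235) the values were 18.11 and 31.01. At this last region the nearest wild-type peak was in a shared region and had an enrichment of 37.67. A region on chromosome 7 (26632995 to 26633520) was weakest in clone D at 14.13, with 26.46 in clone C8. The widest member, on chromosome 13 (13036339 to 13037313), spanned 975 bp because its clone peaks of 511 and 593 bp overlapped little, and it was weak, with enrichments of 9.06 and 7.76.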

How the data were processed

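CTCF ChIP-seq was deposited as 1 peak list per library (wild type, clone D, clone C8), so peaks were called per library. The 3 inputs among the 6 samples did not enter. Bowtie 1.0.0, bcl2fastq 1.8.4 and build mm9 are named per the submitters' processing notes, with the peak caller not given in the sources used here. For each peak the authors deposited 3 values without column names, read from the layout and the values as a fold enrichment (ratio), a −log10 p and a false discovery rate, a q-value given as a fraction. Percentiles and ranks were taken within a list. Values of different lists printed side by side, and thresholds set on all lists, are not on a common scale. Positions are mm9, counted from 1. Distances are the bases between region ends. Genes and sequences at the regions were not analysed here, for want of a reference in mm9.

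Regions are connected sets of peaks overlapping by at least 1 bp. Intervals are exact (Clopper-Pearson) 95% binomial intervals. The share expected from strength averages regions in 50 bins of mean percentile. Named regions were those whose −log10 p reached 20 in both clones, the widest, those nearest to the rule's limit, the longest runs, the fullest 2 Mb windows and those farthest from shared regions. Members and rules were chosen with earlier results of these data known. Python 3.11.15 with pandas 2.3.3, numpy 2.4.6, SciPy 1.17.1 and matplotlib 3.10.9 was used. On simulated data, all 5000 regions fell in their class and 659 of 659 distances were right. On the real lists, 7 of 7 class counts equalled those of bedtools 2.31.1.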

Additional observations from a re-analysis of the deposited data

How the results depend on the processing

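The other settings asked for a 50% reciprocal overlap, widened peaks by 500 bp, trimmed the lists, kept autosomes only or left out a clone. The number of members was 2239 with reciprocal overlap, 2035 with extension, 2885 with lists of equal length by −log10 p and 1757 at a −log10 p of at least 10, most of them not members in the deposited lists. It moved by over 1.5 times in the upper 75% of each list (897) and for false discovery rates up to 0.05 (4905), and with a clone left out (4441 to 6006). The share of both-clone regions without a wild-type peak moved by more than the spread between the clones (2.63 points) in the upper 75% (4.49%), with equal lengths (11.1% by enrichment, 11.3% by −log10 p), at the false discovery rate threshold (20.3%) and with a clone left out (15.0 to 18.7%). For each result, the spread between the clones was the standard deviation of the values with clone D and with clone C8 left out. Leaving out a clone asks 1 list in place of 2 to hold the region. The spread is therefore not that of the both-clone value itself, and the values with a clone left out also set it. The thresholds shorten the lists unequally. The median percentile of members in the clone lists, 22.5 in the deposited lists, moved in 8 of 10 settings, with values of 15.0 to 45.1, the highest where weak peaks were removed by −log10 p. The median distance to a shared region was 20.6 to 25.1 kb and the median width 364 to 504 bp, and each moved in 4 of 10. Of 66 other values, 31 stayed within the spread between the clones and 35 moved. The values for chromosomes 8, 12 and X were added after seeing the data. Unknown depth limits every statement: a peak missing from a list was not called, which does not show an unbound site. No paired analysis was possible because no result comes from a test and the columns carry no numbers that pair samples. The planned gene and motif results were not run for want of a reference in mm9.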
